A study of Homo sapiens with 24 samples.

Results

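The contactin genes CNTN1, CNTN3, CNTN4, CNTN5 and CNTN6 were examined for H4K20me3, histone H4 trimethylated at lysine 20, a mark of silent heterochromatin. They are 5 of the 19866 protein-coding genes that RefSeq places on the primary chromosomes of GRCh38. The members were a fixed list of symbols, each measured over its RefSeq span plus 2 kb on each side. The list was proposed with the length of these genes under peaks already known, so all such lengths are given as descriptions and none was tested.

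The mark was mapped by CUT&RUN, in which a nuclease tethered to an antibody releases marked chromatin for sequencing, in HN-SCC-151, a head and neck squamous cell carcinoma line without HPV and labelled wild type. The inhibitor arm set 3 libraries of cells given 2.5 µM A-196, an inhibitor of SUV420H1 (KMT5B) and of its paralog KMT5C, against 3 libraries of cells given DMSO. The siRNA arm set 4 libraries of cells given siRNAs to SUV420H1 (siSUV420H1) against 4 libraries of cells given a control siRNA (siNC). Treatment lasted 6 days in every group, and the question was how the mark changed once the enzyme was inhibited or depleted. KMT5B had 0 kb under peaks throughout, which does not check the knockdown, and its RNA was not analysed here.

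Each library gave 1 list of broad peaks on hg38 without read counts, so sequencing depth was unknown. Covered length was 79.6 to 107 Mb with A-196 (8505 to 13464 peaks) and 145 to 153 Mb with DMSO (8430 to 8921 peaks). It was 118 to 130 Mb with siSUV420H1 (9325 to 10203 peaks) and 183 to 193 Mb with siNC (13818 to 14675 peaks). Mean covered length thus differed by -34.6% between A-196 and DMSO and by -33.7% between siSUV420H1 and siNC. The series describes 3 dishes per condition for 4 siRNA libraries per group, so some of those libraries may share a dish.

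Contactins are cell adhesion molecules of the immunoglobulin superfamily that carry immunoglobulin and fibronectin type III domains and sit on the outer membrane through a glycosylphosphatidylinositol anchor. They act mainly on neurons, where they bind partners on the same cell or on neighbouring cells during axon growth, synapse formation and the assembly of myelinated fibres. SUV420 enzymes add further methyl groups to H4K20 that already carries one, and the trimethylated product is typical of constitutive heterochromatin. All 5 genes are long, from 311 kb for CNTN6 to 1338 kb for CNTN5. CNTN6 and CNTN4 are neighbours at the tip of the short arm of chromosome 3.

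The sequences before 4 annotated start sites are shown because a peak reached the start site, or lay next to it, in 3 of them and was far from it in the last. Each is the 250 bases before a RefSeq start site on GRCh38.p14, read 5′ to 3′ on the gene's own strand, with every CG dinucleotide in capitals. The CNTN1 stretches are chr12:40827934-40828183 and chr12:40908107-40908356, both on the plus strand and both inside the gene. The start of the CNTN1 span, at 40692439, is not among the start sites read. That of CNTN6 is chr3:1092774-1093023 on the plus strand and that of CNTN3 is chr3:74614660-74614909 on the minus strand.
CNTN1, the first start site: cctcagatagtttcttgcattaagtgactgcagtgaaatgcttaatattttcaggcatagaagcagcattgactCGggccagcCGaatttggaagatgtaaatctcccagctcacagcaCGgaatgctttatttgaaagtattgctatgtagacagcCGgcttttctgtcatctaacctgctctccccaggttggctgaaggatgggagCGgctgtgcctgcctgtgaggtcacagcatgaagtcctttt
CNTN1, the second start site: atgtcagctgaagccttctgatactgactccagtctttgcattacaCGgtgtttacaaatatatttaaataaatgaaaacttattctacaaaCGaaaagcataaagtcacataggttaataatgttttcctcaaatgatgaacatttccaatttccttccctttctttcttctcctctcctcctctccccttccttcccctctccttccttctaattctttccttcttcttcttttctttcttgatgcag
CNTN6: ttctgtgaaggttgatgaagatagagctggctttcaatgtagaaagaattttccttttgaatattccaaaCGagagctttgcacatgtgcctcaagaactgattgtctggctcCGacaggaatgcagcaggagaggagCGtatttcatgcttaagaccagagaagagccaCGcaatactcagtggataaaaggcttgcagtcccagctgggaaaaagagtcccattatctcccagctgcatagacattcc
CNTN3: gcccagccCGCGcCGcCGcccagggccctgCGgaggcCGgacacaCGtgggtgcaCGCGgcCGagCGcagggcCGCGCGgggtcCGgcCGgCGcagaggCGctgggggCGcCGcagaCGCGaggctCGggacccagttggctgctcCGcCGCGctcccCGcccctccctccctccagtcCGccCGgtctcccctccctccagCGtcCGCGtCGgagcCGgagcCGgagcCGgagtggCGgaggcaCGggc
The motif searched was CG, which reads the same on both strands and does not overlap itself. CNTN1 held 5 and 2 CG in these stretches and CNTN6 held 4, whereas CNTN3 held 38. The main start site of CNTN4 held 40 and that of CNTN5 held 26. Another CNTN4 start site, further along the gene at 2892220, held 2 and lay under no peak in any library. Of 35116 RefSeq start sites, 93.9% had at least 1 CG in the same window and the median was 11. Only 3.28% had as many as CNTN3, and 38.1% had as few as the first CNTN1 site or fewer. Both CNTN1 sites shown, which lie inside the gene, the CNTN6 site and the further CNTN4 site thus held fewer CG than the median. The CNTN3 and CNTN5 sites and the main CNTN4 site held more.

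Patterns differed within the family. The lowest A-196 library had more of CNTN4 and CNTN6 under peaks than the highest DMSO library, and so did the lowest siSUV420H1 library against the highest siNC library. Of all genes with a peak in the arm, 3.87% with A-196 and 10.4% with siSUV420H1 were higher in this way. CNTN1 and CNTN5 had little sequence under peaks. It lay in control libraries alone at CNTN1, and at CNTN5 in all 7 control and 3 of the 7 treated libraries. Each was lower in every treated library in 1 arm only, CNTN5 with A-196 and CNTN1 with siSUV420H1. So were 19.5% and 33.7% of all genes with a peak in these arms. CNTN3 had no peak in any of the 14 libraries. Summed over the 5 genes, 55.7 kb ± 15.5 lay under peaks with A-196 and 10.7 kb ± 2.89 with DMSO (SD, n = 3 each). The sum was 186 kb ± 84 with siSUV420H1 and 53.8 kb ± 22.9 with siNC (SD, n = 4 each). A mark present in fewer cells and a weaker mark in every cell cannot be told apart in these bulk peak lists.

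**Figure D1:**
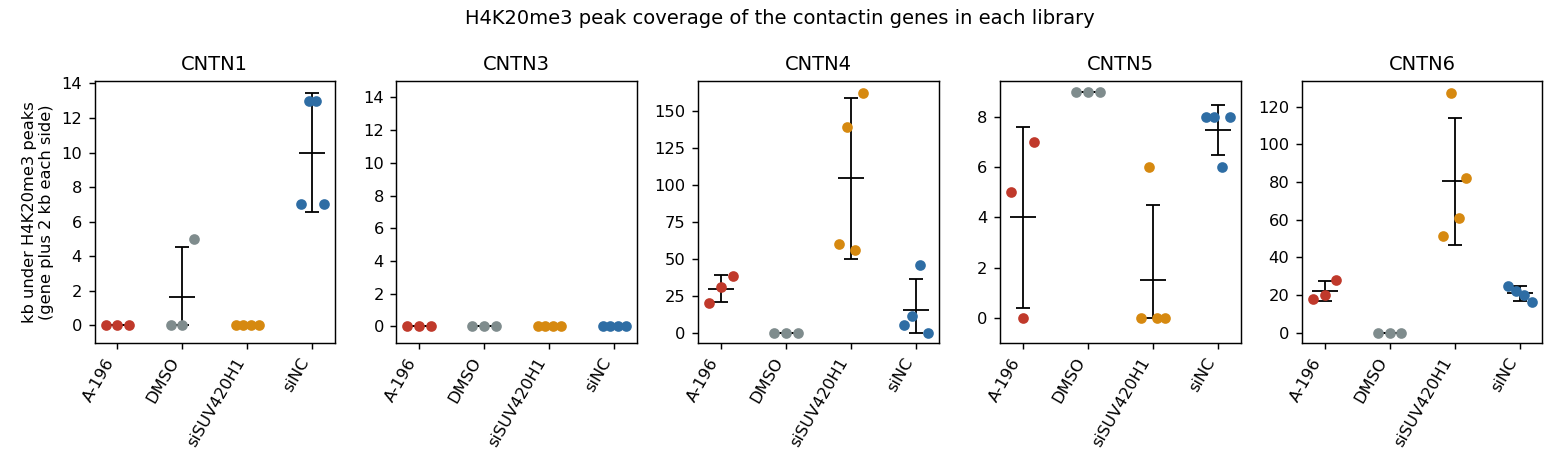
Length under H4K20me3 peaks (kb) of each contactin gene with 2 kb on each side; every point is 1 library, the bar is the group mean and the whiskers are 1 SD, cut at 0. CNTN4 and CNTN6 stand at 0 in all DMSO libraries and highest with siSUV420H1, CNTN1 and CNTN5 stand at up to 13 and 9 kb in control libraries, and CNTN3 is at 0 throughout; the vertical scales differ.

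CNTN6 encodes a contactin, also called NB-3, that in mice takes part in the wiring of the cerebellum. Its span (chromosome 3, 1093024 to 1404217) had 18, 20 and 28 kb under peaks in the A-196 libraries, against 0 kb in each of the 3 DMSO libraries. The inhibitor groups did not overlap. With siSUV420H1 it had 51.2, 127, 61 and 82 kb, against 25, 22.2, 20 and 16 kb with siNC. The lowest siSUV420H1 library thus stood at about the double of the highest siNC library. Per length, peaks covered 6.98% ± 1.68 of the span with A-196 and 0% with DMSO (n = 3 each), and 25.5% ± 10.7 with siSUV420H1 and 6.6% ± 1.21 with siNC (SD, n = 4 each). In its share of the span CNTN6 was the most covered contactin in each group but DMSO, where CNTN5 was, at 0.671%.

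CNTN4 encodes a contactin, also called BIG-2, that guides olfactory and visual axons in mice. Its span (chromosome 3, 2098866 to 3057959) had 20, 31 and 38 kb under peaks with A-196, against 0 kb in each of the 3 DMSO libraries. With siSUV420H1 it had 60, 139, 56 and 162 kb, against 5, 11, 46 and 0 kb with siNC. The siRNA groups did not overlap, but siNC replicate 3 with 46 kb came within 10 kb of the lowest siSUV420H1 library. As a share of the span this was 3.08% ± 0.942 with A-196, 0% with DMSO, 10.8% ± 5.63 with siSUV420H1 and 1.61% ± 2.16 with siNC.

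These calls have to be read against all genes. Every A-196 library exceeded every DMSO library in 3.87% of the 5613 coding genes with a peak in that arm, and in 11.7% of the 776 such genes of 250 kb or more. Leaving out 1 A-196 library, replicate 1, 2 or 3, raised the 217 genes of that count to 474, 333 and 537. Leaving out DMSO replicate 1, 2 or 3 gave 238, 235 and 230. A call asks for fewer libraries in either case, and what set the size of the rise was not tested. In the siRNA arm, every siSUV420H1 library exceeded every siNC library in 10.4% of 3959 genes, and in 8.55% of 655 long genes. Division by the covered length of each library turned these 413 higher genes into 1245, and the 217 of the inhibitor arm into 508. Every treated library covered less than every control library of its arm. No higher call, those of CNTN4 and CNTN6 included, could therefore be lost by this division. The reverse, every treated library below every control library, held for 19.5% of genes with A-196 and for 33.7% with siSUV420H1. With A-196 both genes were covered in all treated and no control libraries, as were 2.87% of genes. The like share in the siRNA arm was 1.72%, and neither gene was among those. With 0 kb in DMSO, both genes entered the 5613 through A-196 libraries alone and could not be lower. The shares of the inhibitor arm are thus background and no test of these calls. By mean difference, CNTN4 (29.7 kb) stood 13th from the top of 5613 genes and CNTN6 (22 kb) 32nd with A-196. Among the 776 long genes they stood 12th and 25th. With siSUV420H1, CNTN4 (88.8 kb) stood 4th of 3959 genes and CNTN6 (59.6 kb) 9th, and they stood the same among the 655 long genes. Since the list was chosen on these lengths, the ranks describe the 2 genes and support nothing further.

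**Figure D2:**
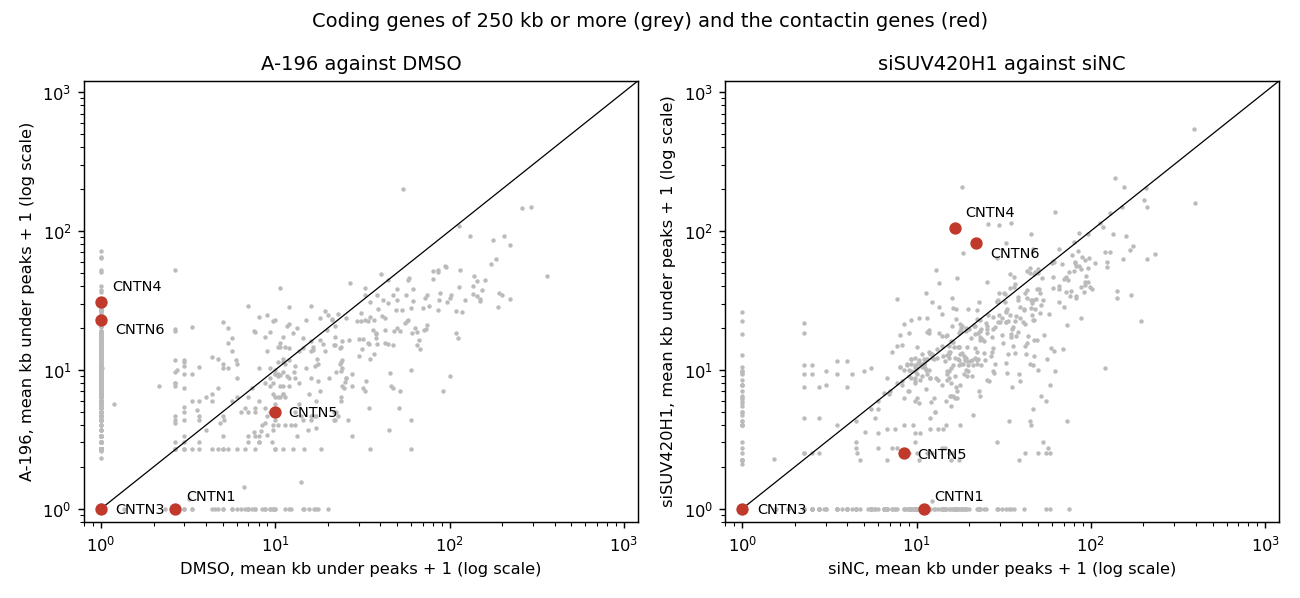
Mean length under peaks plus 1 kb, on log axes, for coding genes of 250 kb or more (grey) and the contactin genes (red), with the treated group on the vertical axis and its control on the horizontal one; the line marks equal values. CNTN4 and CNTN6 lie above the line in both arms, CNTN1 and CNTN5 below it, and CNTN3 sits at 0 kb in all groups.

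The 2 genes are not isolated domains. Before the end of CNTN4, the DMSO libraries had no peak on chromosome 3 from the tip on, and all other groups had peaks in and between the genes. The stretch of 684 kb between CHL1 and CNTN6 had 21, 19 and 28 kb under peaks with A-196, against 0 kb in each DMSO library. With siSUV420H1 that stretch had 188, 277, 139 and 217 kb, against 66, 64, 80 and 43 kb with siNC. The stretch of 695 kb between CNTN6 and CNTN4 had 36 kb ± 7.21 with A-196 and 0 kb with DMSO (SD, n = 3). It had 258 kb ± 64.7 with siSUV420H1, which is 37.2% of its length, and 63.2 kb ± 29.1 with siNC (SD, n = 4). In both intervals the lowest treated library lay above the highest control library. With siSUV420H1 the mean share covered was thus higher in the stretches on either side of CNTN6 than in CNTN6 itself, where it was 25.8% of the annotated span.

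CHL1, an adhesion molecule of the L1 family and the nearest coding gene before CNTN6, had 0, 0 and 6 kb in the A-196 libraries and 0 kb in the DMSO libraries. With siSUV420H1 it had 19 to 57.2 kb, against 5 to 11 kb with siNC. Among peaks of at least 9 kb, the median width of the siRNA arm, the siRNA groups overlapped at CHL1. Beyond CNTN4, IL5RA, which encodes the alpha chain of the interleukin 5 receptor and begins 8.36 kb past CNTN4, had no peak in any of the 14 libraries. Within 1 Mb past CNTN4, 38 kb ± 10.1 lay under peaks with A-196 and 19.3 kb ± 0.577 with DMSO (SD, n = 3 each). Every A-196 library there, at 27 to 47 kb, lay above every DMSO library, at 19 to 20 kb, and the mean share of 3.8% with A-196 was no lower than the 3.09% of the CNTN4 span. The same stretch had 20.2 kb ± 6.24 with siSUV420H1 and 16.2 kb ± 0.957 with siNC (SD, n = 4 each). It holds the only sequence from the tip of the arm to 1 Mb past CNTN4 that was covered in all 14 libraries, 7 kb without an annotated gene (chr3:3660001-3667000), 602 kb past the end of CNTN4.

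**Figure D3:**
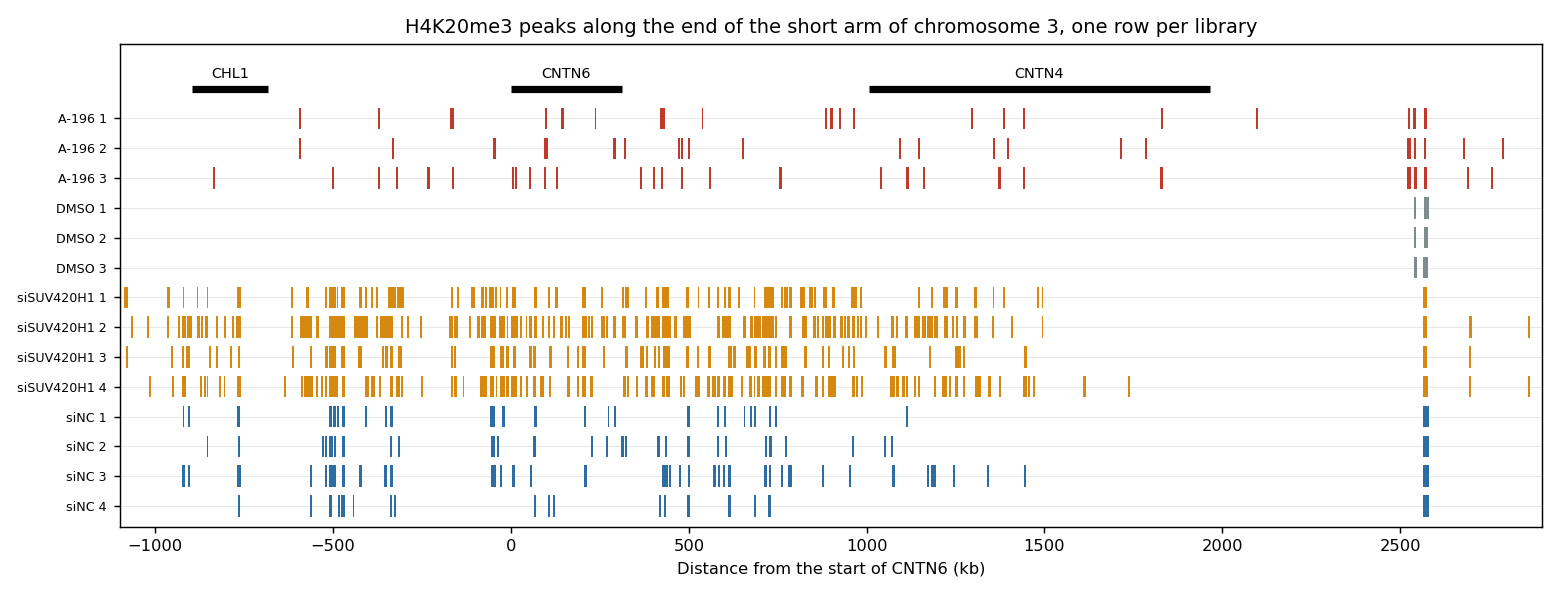
H4K20me3 peaks (coloured blocks) in each of the 14 libraries by distance in kb from the start of CNTN6, with the spans of CHL1, CNTN6 and CNTN4 in black. The DMSO rows are empty up to the end of CNTN4, the A-196 rows hold scattered narrow peaks, the siSUV420H1 rows are dense from the tip into CNTN4 and the siNC rows are sparser over the same stretch.

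**Figure D4:**
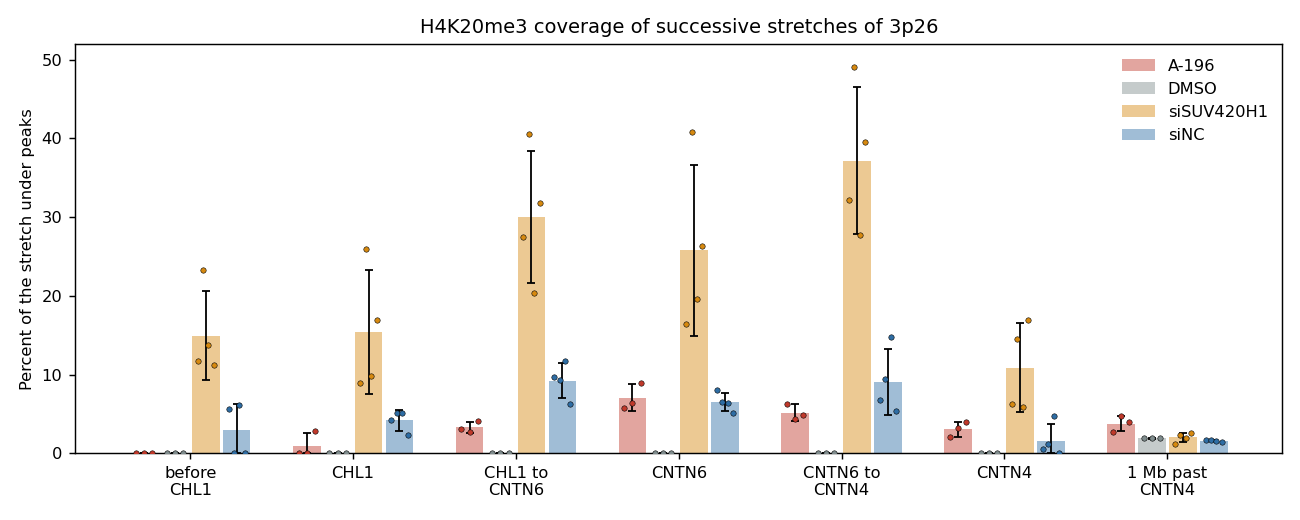
Percent of successive stretches of 3p26 under peaks: bars are group means, whiskers 1 SD cut at 0, points single libraries. The highest mean is 37.2%, with siSUV420H1 between CNTN6 and CNTN4, and in the 1 Mb past CNTN4 the group means lie between 1.62% and 3.8%.

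Along CNTN4 the peaks were unevenly placed. Up to its midpoint, 55, 134, 56 and 147 kb lay under peaks with siSUV420H1, against 5, 11, 46 and 0 kb with siNC. Past the midpoint the siSUV420H1 libraries had 5, 5, 0 and 15 kb, against 0 kb in each siNC library. With A-196, 15, 21 and 30 kb lay before the midpoint and 5, 10 and 8 kb after it. The start side of CNTN4 therefore held most of the covered length in each siSUV420H1 and A-196 library. CNTN6 was covered on both sides of its midpoint with siSUV420H1, at 47.7 kb ± 19.3 before and 32.7 kb ± 15.2 after it (SD, n = 4).

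Peaks of both genes were narrow, in libraries whose median peak width was 6 to 7 kb with A-196 and 9 to 10 kb with DMSO. The 26 peaks of the A-196 libraries in CNTN4 and CNTN6 measured 5 to 11 kb with a median of 5 kb, the narrowest width in any list. The 94 peaks of the siSUV420H1 libraries measured 5 to 18 kb, and the 23 peaks of the siNC libraries 5 to 14 kb. Among peaks of at least 8 kb, the median width of the inhibitor arm, the A-196 and DMSO groups overlapped for both genes, and the differences were 5.33 kb at CNTN4 and 6.67 kb at CNTN6. Among peaks of at least 9 kb, the median width of the siRNA arm, both siRNA calls held, with differences of 56 kb at CNTN4 and 34.1 kb at CNTN6 in place of 88.8 and 59.6 kb.

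In both genes most of the length covered in a group was covered in only 1 of its libraries. The exception was CNTN6 with siSUV420H1, where this was 68 of 162 kb. In CNTN4, 71 of the 80 kb covered in any A-196 library were covered in only 1 of them, and no base was covered in all 3. In CNTN6 this was 46 of 54 kb, and 4 kb were common to the 3 libraries (chr3:1188001-1192000), within the annotated noncoding RNA LOC105376923. No DMSO, siSUV420H1 or siNC library had a peak on those 4 kb. With siSUV420H1, 5 kb of CNTN4 were common to all 4 libraries (chr3:2345001-2350000), out of 262 kb covered in any, and 41 kb were covered in at least 3. In CNTN6, 28 of 162 kb were common to the 4 siSUV420H1 libraries, in 4 stretches of 9, 7, 2 and 10 kb. The widest, chr3:1294001-1304000, had a peak in 2 siNC libraries as well, and the one of 7 kb, chr3:1157001-1164000, in 3 of them. With siNC no base of either gene was covered in all 4 libraries.

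The control pattern of the siRNA arm lay largely within that of the knockdown. In CNTN6, 56.2 kb were covered both in any siSUV420H1 and in any siNC library, which is 34.7% of the siSUV420H1 total and 87.5% of the siNC total. In CNTN4 the shared 51 kb were 19.5% and 87.9%. Between the arms, 36 kb of CNTN6 were covered in any A-196 and in any siSUV420H1 library, 66.7% of the A-196 total and 22.2% of the siSUV420H1 total. For CNTN4 the 35 kb were 43.8% and 13.4%. The arms share no H4K20me3 library, and the denser coverage of one group widens any such overlap.

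Within a group, covered length in the genes went with that of the library in part. The siSUV420H1 replicates 2 and 4, with 266 and 244 kb in CNTN4 and CNTN6 together, also had the most covered genome, 130 and 126 Mb. Replicates 1 and 3 had 111 and 117 kb in these genes with 124 and 118 Mb covered. Across groups it did not: the siNC libraries covered more of the genome than any siSUV420H1 library and had 30, 33.2, 66 and 16 kb in the 2 genes. How far library yield took part in these values was not tested. Over the 14 libraries, log2(kb + 1) of CNTN4 and CNTN6 had a Pearson r of 0.87, and these points share groups, libraries and the state of the whole region.

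The start sites of both genes stayed outside the peaks. The nearest peak to the CNTN6 start lay 0.977 kb away with siSUV420H1, 1.98 kb with A-196 and 2.98 kb with siNC, while the nearest DMSO peak was 2539 kb away. Peak ends fall on a grid of 1 kb, so the first of these distances is at the resolution of the lists. At the CG-rich main start site of CNTN4 the nearest peaks were 4.87 kb away with siSUV420H1, 32.1 kb with A-196 and 40.9 kb with siNC. The other annotated CNTN4 start site, at 2892220 and with only 2 CG, had no peak within 12 kb in any library.

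CNTN1 encodes the contactin that pairs with CNTNAP1 at the junctions between axon and myelin beside the node of Ranvier. Its span (chromosome 12, 40692439 to 41072415) had 0 kb under peaks in all 4 siSUV420H1 libraries, against 7, 13, 13 and 7 kb in the siNC libraries. It had 0 kb in all 3 A-196 libraries, against 0, 0 and 5 kb in the DMSO libraries. The siRNA groups did not overlap and the inhibitor groups did. In the inhibitor arm 6.29% of genes were covered in every DMSO library and in no A-196 library, and no contactin was among them. A gene marked in every siNC library and in no siSUV420H1 library was common, at 15% of 3959 genes, and 45.8% of the long genes were lower in every siSUV420H1 library. Among peaks of at least 9 kb CNTN1 had 0 kb in all libraries of the siRNA arm, since its peaks measured 5 to 8 kb.

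The CNTN1 peaks lay on annotated start sites inside the gene, and none lay at the start of its span. All 4 siNC libraries and DMSO replicate 3 had a peak over the first start site shown above, at 40828184, which lies inside the gene, 136 kb past the start of its span. The other 9 libraries had none. The part common to the siNC libraries measured 6 kb (chr12:40828001-40834000). A second peak lay over the second start site, 80.2 kb further on, in siNC replicates 2 and 3. Over all genes, 3.46% of the 35116 RefSeq start sites lay under a peak in every siNC library and 2.31% in every siSUV420H1 library. With 3 libraries to a group, 1.19% did so in every A-196 library and 3.77% in every DMSO library. The start sites that had a peak in every siNC library had a median of 3 CG in the 250 bases before them, against 11 over all start sites.

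CNTN5 encodes a contactin, also called NB-2, that acts in the auditory pathway of mice. Its span (chromosome 11, 99020949 to 100358885) had 5, 0 and 7 kb under peaks with A-196, against 9 kb in each DMSO library. The groups did not overlap in kb, but they overlapped once each value was divided by the covered length of its library. Every A-196 library lay below every DMSO library in 19.5% of the 5613 genes and in 24.4% of the 776 long genes. With siSUV420H1 it had 0, 6, 0 and 0 kb, against 8, 8, 6 and 8 kb with siNC, with a tie between siSUV420H1 replicate 2 and siNC replicate 3. Without either of these libraries every siSUV420H1 library lay below every siNC library. With all libraries kept, that held for 33.7% of 3959 genes and for 45.8% of 655 long genes.

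Nearly all of this was 1 domain near the end of the gene. All 7 control libraries covered chr11:100329001-100335000, about 24 kb before the end of CNTN5. A-196 replicate 3 and siSUV420H1 replicate 2 had a peak at the same place, and the other treated libraries had none there. The peak of A-196 replicate 1 lay elsewhere, 403 kb past the start. Apart from these peaks no library had one in this gene, the longest of the family.

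**Figure D5:**
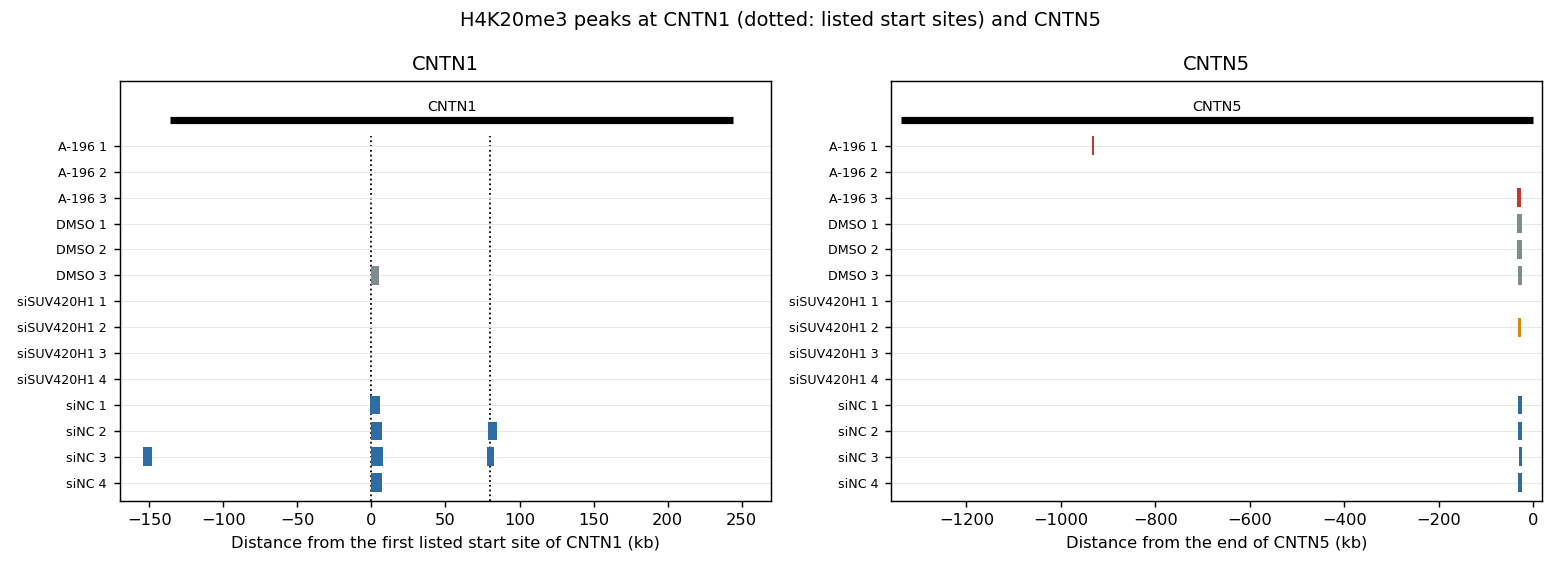
H4K20me3 peaks (coloured blocks) in each of the 14 libraries at CNTN1, by distance in kb from the first listed start site, and at CNTN5, by distance in kb from the gene end; black bars are the gene spans and dotted lines the 2 listed CNTN1 start sites. Peaks in CNTN1 lie on the start sites in siNC libraries and DMSO replicate 3, with 1 more of siNC replicate 3 outside the span, and all but 1 peak of CNTN5 lie at the same place near its end.

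CNTN3, also called BIG-1, is a neuronal contactin whose span (chromosome 3, 74262568 to 74614659) had 0 kb under peaks in all 14 libraries. The nearest peak to its start site was 109 kb away with A-196, 175 kb with siNC and over 1 Mb with siSUV420H1 and DMSO. Its nearest coding neighbours lie far off, PDZRN3 at 638 kb and FRG2C, a gene with near-identical copies elsewhere, at 1050 kb. CNTN3 lies on the same chromosome arm as CNTN4 and CNTN6 and is of similar length to CNTN6.

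Per length, as the share of the span under peaks, the order with A-196 was CNTN6, CNTN4, CNTN5, then CNTN1 and CNTN3 at 0%. The order with siSUV420H1 was the same, with CNTN4 and CNTN6 overlapping. In both treated groups the lowest CNTN5 value was 0%, so that CNTN5 overlapped CNTN1 and CNTN3. With siNC the order was CNTN6, CNTN1 at 2.6% ± 0.902, CNTN4, CNTN5 at 0.559% ± 0.0745, and CNTN3 (SD, n = 4). There CNTN4 overlapped CNTN1 and CNTN5, and in siNC replicate 4, at 0%, it equalled CNTN3. With DMSO only CNTN5 was covered in each library.

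A further 31 genes were listed, of which 22 had a peak in the inhibitor arm and 14 in the siRNA arm. They were CNTN2, contactin-associated proteins, the L1 family, binding partners and 12 other neuronal adhesion genes of the immunoglobulin superfamily. With A-196, 5 were higher (CNTNAP2, CNTNAP5, L1CAM, TNR and MDGA2) and 3 lower (NRCAM, LSAMP and NTM) in every library, where 3.87% and 19.5% of all 5613 genes were. None of the 5 higher calls held among peaks of at least 8 kb, nor did that of LSAMP, and those of NRCAM and NTM ended on division by covered length. With siSUV420H1, 1 was higher (CHL1) and 5 lower (NRCAM, LSAMP, DSCAM, SDK1 and MDGA1), where 10.4% and 33.7% of all 3959 genes were. Among peaks of at least 9 kb the lower calls of NRCAM and SDK1 held and the other 4 ended. A gene covered with A-196 alone entered the count through those libraries and could be higher or overlap but not lower. No median over the listed genes is therefore given. CNTN2, the contactin of the juxtaparanode that is not among the members, had 2.29 kb in A-196 replicate 2 and 0 kb in all other libraries.

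Among contactin-associated proteins, transmembrane partners of contactins, CNTNAP1 and CNTNAP4 had no peak. CNTNAP2 had 6, 37 and 8 kb with A-196, against 0 kb in each DMSO library, and 10, 31, 0 and 60 kb with siSUV420H1, against 0 kb in each siNC library. CNTNAP5 had 5, 23 and 11 kb with A-196 and 0 kb in the other 11 libraries. In the siRNA arm the groups overlapped at CNTNAP2, through siSUV420H1 replicate 3.

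In the L1 family, whose members bind contactins, NRCAM had 0, 14 and 5 kb with A-196, against 29, 17 and 25 kb with DMSO. It had 0 kb in each siSUV420H1 library, against 22 kb in each siNC library. In the siRNA arm NRCAM was thus lower in every knockdown library, and CHL1, whose call did not hold among wide peaks, was higher. The receptor phosphatase PTPRZ1, a ligand of CNTN1, had 3.89 kb ± 4.51 with A-196 and 7.33 kb ± 4.04 with DMSO (SD, n = 3 each), and PTPRG, which binds CNTN3 to CNTN6, had no peak. Of the 12 other neuronal adhesion genes of the immunoglobulin superfamily, LSAMP had 0 kb in all treated libraries, against 5 to 10 kb with DMSO and 7 to 13 kb with siNC. Both LSAMP calls ended among wide peaks. Others of the 12 had higher means in treated cells. MDGA2, which encodes a membrane-anchored regulator of synapse formation, had 40, 44 and 71 kb with A-196, against 0, 5 and 0 kb with DMSO. It had 538 kb ± 117 with siSUV420H1 and 391 kb ± 99.3 with siNC (SD, n = 4 each), and these groups overlapped unless divided by covered length. NCAM2, a neural cell adhesion molecule, had 62.5 kb ± 42 with siSUV420H1 and 28 kb ± 13.3 with siNC (SD, n = 4 each), again with overlap.

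The genes whose length under peaks varied most like that of a member over the 14 libraries were found by Pearson r of log2(kb + 1) among 2538 coding genes covered in at least 7 libraries. For CNTN4 they were CNBD1 (r = 0.95) and GPC5 (r = 0.95), and for CNTN6 they were RICTOR (r = 0.98) and SNTG1 (r = 0.96). GPC5, a glypican gene, had 64.3 kb ± 26.6 under peaks with A-196 and 0 kb with DMSO, and 208 kb ± 106 with siSUV420H1 and 17.2 kb ± 11 with siNC. For CNTN5 they were CLEC1A (r = 0.99) and ERICH6 (r = 0.94), and for CNTN1 PPT1 (r = 0.95) and TCP11 (r = 0.92). PPT1 had group means of only 0.084 to 1.25 kb, below the narrowest peak width of 5 kb, and CNTN1 had 0 kb in most libraries. The points share libraries and 4 group levels, so genes that differ between groups in the same order reach a high r.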

How the data were processed

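H4K20me3 CUT&RUN was run on 500000 cells per reaction, per the labels. Of 24 labelled samples, the 14 H4K20me3 libraries were analysed and grouped by their titles; the other 10 were not used here. The deposited values are peak start and end positions in base pairs on hg38. Tools named in the submitters' processing notes are cutadapt 4.4 and Picard 2.27.3, besides Bowtie and bedtools 2.30.0. Names of the deposited lists mark duplicates as removed and give 1 IgG library per arm as the background, from DMSO cells in the inhibitor arm and with no treatment named in the siRNA arm. The peak caller is not given in the sources used here. Peaks lie on a 1000 bp grid and are at least 5 kb wide, with gaps of at least 2 kb, so smaller changes are not visible.

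Kb under peaks were summed per gene (RefSeq span, GRCh38.p14, plus 2 kb on each side) with Python 3.11.15 and pandas 2.3.3, checked on simulated data. A gene counted as having a peak from 200 bp. A gene was called lower or higher where groups did not overlap. The members and the gene lists were chosen with earlier results of these data known. Named genes were the members, the listed genes, the nearest coding neighbours and, per member, the 2 most similar genes. Promoter sequences are from RefSeq, GRCh38.p14, and all 5 members matched. Alternatives are given in the closing section.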

Additional observations from a re-analysis of the deposited data

Results flagged for a closer look

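Among the 9 groups of 4 libraries examined for a library far from the others, 2 held one, both at CNTN5. Chance flags about 1 in 20 groups of continuous values, but both of these hold 3 tied values on the peak grid, so that any gap would have been picked out and that rate does not apply. At CNTN5, siSUV420H1 replicate 2 had 6 kb under peaks where the other siSUV420H1 libraries had 0 kb. At the same gene, siNC replicate 3 had 6 kb where the other siNC libraries had 8 kb, a gap of 2 steps of the peak grid.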

How the results depend on the processing

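None of the 122 alternative values computed for the members' differences had the opposite sign, and 5 were 0. DMSO had 0 kb at CNTN4 and CNTN6 in every library, as had A-196 and siSUV420H1 at CNTN1, so those differences could not change sign. When peaks narrower than the arm's median width were dropped, the summed difference between A-196 and DMSO was 3 kb in place of 45 kb, and 41 genes were higher with A-196 in place of 217. Leaving out 1 library gave summed differences of 36.3 to 51.3 kb with A-196 and 104 to 157 kb with siSUV420H1 (132 kb with all libraries), and 230 to 537 genes higher with A-196. A call asks for fewer libraries when 1 is left out, so such counts tend to rise. The rise was larger without an A-196 library (333 to 537 genes) than without a DMSO library (230 to 238). Divided by the covered length of each library, 508 genes were higher with A-196 and 768 lower, in place of 217 and 1093, so 39.8% of calls were higher in place of 16.6%. With siSUV420H1 1245 were higher and 936 lower, in place of 413 and 1336, which is 57.1% in place of 23.6%; this scaling raises treated values, since treated libraries covered less. CNTN4 and CNTN6 stayed higher in both arms under it, as they had to, since it could end no higher call. With the replicate block, 247 genes were higher and 1208 lower with A-196, and 488 and 1435 with siSUV420H1; same-numbered libraries did not deviate together (r between -0.03 and 0.04), so the numbers were not taken as pairs. Depth is unknown and limits what a missing peak can show.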
